A study of Mus musculus with 4 samples.

Results

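Axon guidance cues and their receptors were examined in the lens, as 69 protein-coding genes out of the 56748 genes of the deposited table. The members were taken by gene name and by no measured value: every class 3 to class 7 semaphorin (20 genes), plexin (9 genes), neuropilin (2 genes), Slit (3 genes), Robo (4 genes), netrin (4 genes), netrin receptor of the Unc5 and Dcc type (5 genes), ephrin-A (5 genes), ephrin-B (3 genes), EphA (9 genes) and EphB (5 genes). Of these, 35 encode ligands and 34 encode receptors. None of the 46 members that could be tested passed an adjusted p of 0.05 between mutant and control lenses. Levels are described first, over all 69, from *Epha2* at the top to *Epha6*, which was not tested and had no read in any library.

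These genes are named for steering growing axons, but most of them act wherever cells have to sort, repel or adhere to one another. Semaphorins signal through plexins, with neuropilins as co-receptors of the class 3 semaphorins, and Slits signal through Robo receptors. Netrins signal through Dcc and Unc5 receptors. Ephrins are tethered to the membrane and bind Eph receptor tyrosine kinases on a touching cell, and signals pass in both directions. In the lens, the receptor EphA2 and the ligand ephrin-A5 are known for their part in the packing of fibre cells and the arrangement of the epithelium, and changes in either gene have been linked to cataract.

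The lenses came from mice 10 to 12 days old, and each group had 2 libraries, labelled replicates 1 and 2. The mutant, *Fsp1-cre;Pdgfrb+/D849V*, carries 1 knock-in allele of the receptor PDGFRβ with the activating D849V substitution, which Cre recombinase under the *Fsp1* (*S100a4*) promoter switches on in the cells that use that promoter, and this promoter is not particular to the lens. Both control libraries are labelled *Fsp1-cre;Pdgfrb+/+*, so by the labels every group carries the Cre transgene, whereas the study's methods describe control pools that also held mice without Cre, some of them with the *D849V* allele. The line was kept on the FVB/N strain with a *Rosa-LSL-tdTomato* reporter allele. Every library is a pool of lenses from several mice, so that the spread between 2 libraries is that between 2 pools, and in such bulk tissue fewer cells of a type and less RNA per cell cannot be told apart.

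The libraries held between 18561682 and 18878768 reads, recovered from the deposited FPKM (fragments per kilobase of gene, scaled per library). Crystallin genes took between 58.6% and 62.9% of these reads. Lens fibre markers summed to between 113513 and 138814 FPKM with *Lim2* listed at 0, and lens epithelial markers to between 138 and 165 FPKM. The 8 endothelial markers, all above 0 in every library, summed to 9.22 and 6.05 FPKM in mutant replicates 1 and 2 and to 9.35 and 7.61 FPKM in control replicates 1 and 2. The 7 macrophage markers summed to 1.82 and 1.88 FPKM in the mutant pools, against 0.783 and 0.536 FPKM in the controls. In 6 of the 7, both mutant libraries were higher than both control libraries, where 18.2% of all genes tested were. Of these 6, *Csf1r*, *Cx3cr1* and *Adgre1* were near the floor, under 0.1 FPKM in every library. *Pdgfrb* itself was at 2.36 and 2.16 FPKM in mutant lenses, with 2.25 and 1.79 FPKM in control lenses (log2 fold change 0.16, SE 0.16, limma adjusted p = 0.836), and the substitution cannot be seen in counts per gene. *Xist*, which is transcribed in female cells, was at 7.62 FPKM in mutant replicate 1 and 5.56 FPKM in control replicate 2, against 13.1 FPKM in mutant replicate 2 and 15.6 FPKM in control replicate 1.

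Most axon guidance genes were under 1 FPKM in the lens, as were most protein-coding genes. Of the 69 members, 5 had a mean of at least 5 FPKM over the 4 libraries, 21 had a mean of at least 1 FPKM, 25 lay between 0.1 and 1 FPKM, and 23 lay under 0.1 FPKM. By comparison, 30.4% of the members and 34.4% of all protein-coding genes reached a mean of 1 FPKM. A mean of 0.1 FPKM was reached by 66.7% of the members and 55.3% of protein-coding genes. The members' median percentile among protein-coding genes was 50.8. The 5 highest members, *Epha2*, *Plxnb2*, *Efnb2*, *Sema5a* and *Slit3*, made up 46.8% of the FPKM summed over all members. Along the order of mean levels, the ranges over the 4 libraries of adjacent members were separate only between *Plxnb2* and *Efnb2* and between *Slit3* and *Plxna1*, and every other adjacent pair among the tested members overlapped.

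**Figure D1:**
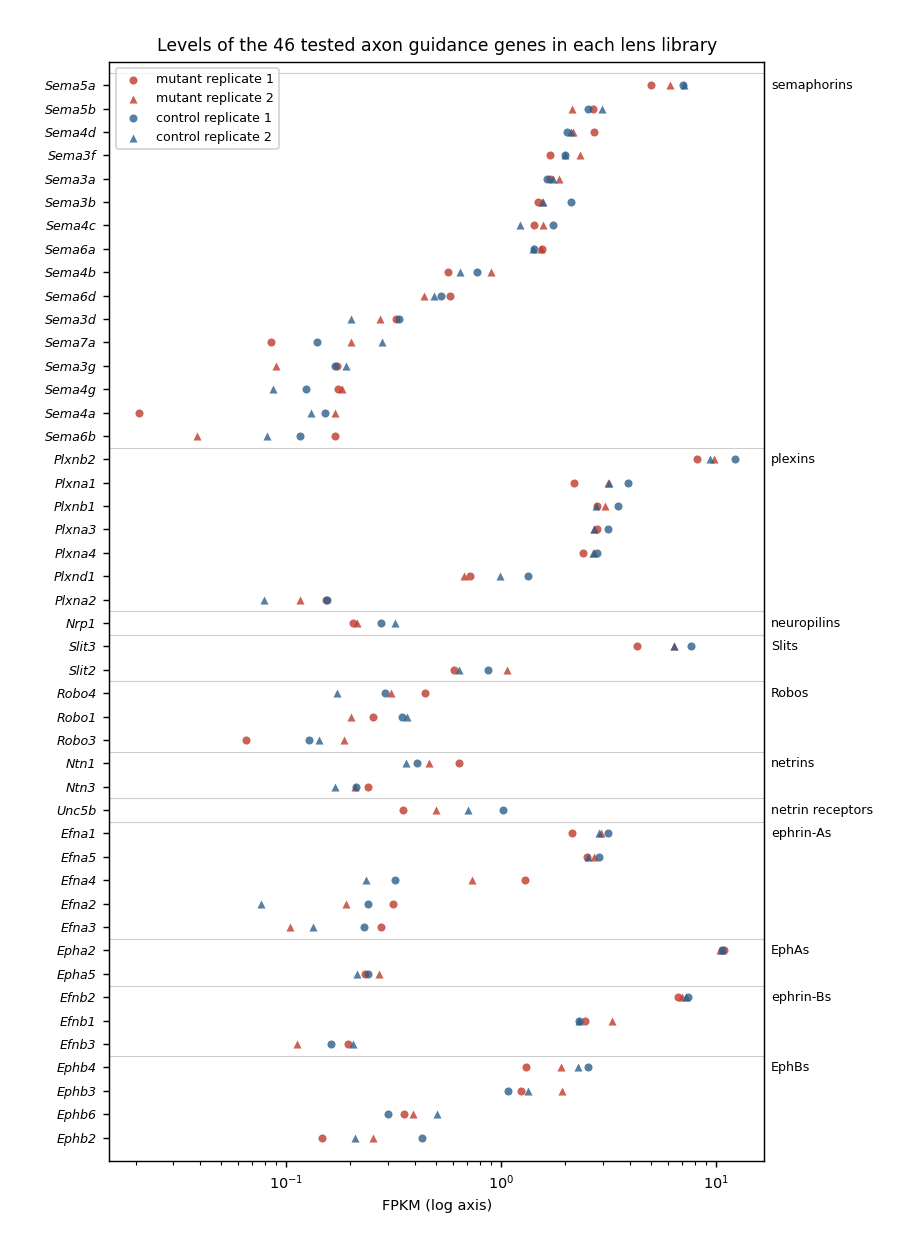
FPKM (log axis) of the 46 members with a mean of at least 0.1 FPKM, 1 row per gene grouped by family, with 1 symbol per library (red, mutant; blue, control; circle, replicate 1; triangle, replicate 2). *Epha2* and *Plxnb2* head the order, the 4 libraries of most genes lie close together, and in *Efna4*, *Unc5b* and *Plxnd1* the red and blue symbols stand apart.

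*Epha2*, the receptor with a known role in the lens, was the most abundant member, at nearly the same level in all 4 libraries. Its level was 11.0 and 10.5 FPKM in mutant replicates 1 and 2 and 10.7 FPKM in both control libraries, which placed it above 93.7% of protein-coding genes. It made up 95.1% of the FPKM of the EphA family, whose sum was between 11.1 and 11.5 FPKM in every library. The groups overlapped, with a log2 fold change of -0.0028 (SE 0.09, 95% interval -0.24 to 0.23, limma adjusted p = 0.998), an interval that holds differences of either direction up to about that size. *Epha5* was the one other EphA gene with a mean of at least 0.1 FPKM over the 4 libraries.

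The ephrin-A ligands were carried by *Efna1* and *Efna5*, which together made up 83.9% of the family's FPKM. *Efna5*, which encodes the ephrin known from lens work, was at 2.53 and 2.71 FPKM in the mutant pools, against 2.88 and 2.56 FPKM in the controls. The groups overlapped, with a log2 fold change of -0.05 (SE 0.13, 95% interval -0.38 to 0.28, limma adjusted p = 0.950). *Efna1*, whose product is a ligand of EphA2, was at 2.15 and 2.93 FPKM in mutant lenses, with 3.15 and 2.88 FPKM in control lenses, again with overlap and a log2 fold change of -0.25 (SE 0.18, limma adjusted p = 0.810). The family's sum, between 5.88 and 6.83 FPKM, was lowest in control replicate 2 and highest in control replicate 1.

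Ephrin-B ligands summed to between 9.37 and 10.4 FPKM, with *Efnb2* at 71.9% of the sum, and their EphB receptors to between 3.11 and 4.60 FPKM. *Efnb2*, whose product pairs with EphB4 at the border of arteries and veins, was at 6.71 and 6.99 FPKM in the mutant pools, against 7.42 and 7.26 FPKM in the controls. Both mutant libraries lay below both control libraries by a small margin (log2 fold change -0.10, SE 0.10, limma adjusted p = 0.833). *Efnb1*, a ligand encoded on the X chromosome, was at 2.47 and 3.28 FPKM in mutant lenses, with 2.32 and 2.33 FPKM in control lenses. Here both mutant libraries lay above both controls, mostly through replicate 2 (log2 fold change 0.28, SE 0.17, limma adjusted p = 0.810). *Ephb3*, an EphB receptor, was at 1.25 and 1.92 FPKM in the mutant pools, against 1.08 and 1.34 FPKM in the controls, and its groups overlapped (log2 fold change 0.34, SE 0.25, limma adjusted p = 0.810).

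Plexins were the largest receptor family by level, with a sum of 19.4 and 22.4 FPKM in mutant replicates 1 and 2 and 27.2 and 22.0 FPKM in control replicates 1 and 2. Control replicate 1 stood above the other 3 libraries. *Plxnb2*, a receptor of class 4 semaphorins, gave 43.8% of the sum and was at 8.17 and 9.86 FPKM in mutant lenses, with 12.3 and 9.47 FPKM in control lenses, with overlap (log2 fold change -0.26, SE 0.17, limma adjusted p = 0.810). Its fold change was -0.13 without mutant replicate 1 and -0.077 without control replicate 1, and -0.40 and -0.45 without mutant and control replicate 2. *Plxna1*, a signalling partner of neuropilins, was at 2.20 and 3.17 FPKM in the mutant pools, against 3.90 and 3.18 FPKM in the controls. Its groups touched without overlapping, since mutant replicate 2 and control replicate 2 had almost the same level (log2 fold change -0.40, SE 0.21, limma adjusted p = 0.810). It was -0.15 without mutant replicate 1, -0.26 without control replicate 1 and -0.66 without mutant replicate 2. *Plxnb1*, *Plxna3* and *Plxna4* lay between 2.41 and 3.51 FPKM in every library, with log2 fold changes of -0.09, -0.07 and -0.10. The neuropilins, needed as co-receptors by most class 3 semaphorins, were low: *Nrp1* was at 0.206 and 0.214 FPKM in mutant lenses, with 0.279 and 0.322 FPKM in control lenses (log2 fold change -0.36, SE 0.32, limma adjusted p = 0.814), and *Nrp2* lay under the 0.1 FPKM minimum.

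Semaphorins were the family with most members above the minimum, 16 of 20, and summed to between 20.7 and 23.2 FPKM. *Sema5a*, a transmembrane semaphorin with thrombospondin repeats, led them with 28.7% of the sum. It was at 5.0 and 6.17 FPKM (1667 and 2257 reads) in the mutant pools, against 7.03 and 7.11 FPKM (2554 and 2450 reads) in the controls. Both mutant libraries lay below both controls, which differed by little (5.59 ± 0.824 against 7.07 ± 0.0593 FPKM, SD, n = 2). The log2 fold change was -0.34 (SE 0.13, limma adjusted p = 0.788), and -0.19 without mutant replicate 1. *Sema5b*, its closest relative, was at 2.69 and 2.14 FPKM in mutant lenses, with 2.55 and 2.97 FPKM in control lenses, with overlap (log2 fold change -0.19, SE 0.17, limma adjusted p = 0.815). *Sema4d*, a ligand of plexin-B1, was at 2.73 and 2.18 FPKM in the mutant pools, against 2.03 and 2.13 FPKM in the controls, with both mutant libraries above both controls (log2 fold change 0.22, SE 0.16, limma adjusted p = 0.810). The remaining tested semaphorins had mean levels that ended near the minimum of 0.1 FPKM, and *Sema3a*, the class 3 semaphorin that repels axons through neuropilin-1, was between 1.65 and 1.88 FPKM in every library.

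Slits were represented by *Slit3*, with 88.5% of the family's FPKM. *Slit3*, which encodes a large secreted Robo ligand, was at 4.33 and 6.42 FPKM (468 and 763 reads) in mutant lenses, with 7.70 and 6.41 FPKM (909 and 717 reads) in control lenses. Mutant replicate 1 was low and control replicate 1 high, while the replicates numbered 2 had the same level to within 0.1 FPKM. The log2 fold change was -0.41 (SE 0.22, limma adjusted p = 0.810), and it ranged between -0.69 without mutant replicate 2 and -0.13 without mutant replicate 1 when each library was left out in turn. The Robo receptors were low, with a summed level of 0.780 to 0.846 FPKM over 4 genes. *Robo4*, known from endothelial cells, was at 0.444 and 0.308 FPKM in the mutant pools, against 0.291 and 0.174 FPKM in the controls (log2 fold change 0.53, SE 0.36, limma adjusted p = 0.810). *Robo1*, the receptor that guides commissural axons away from the midline, was at 0.255 and 0.201 FPKM in mutant lenses, with 0.346 and 0.368 FPKM in control lenses (log2 fold change -0.48, SE 0.30, limma adjusted p = 0.810). The groups of both Robo genes were separate, in opposite directions.

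Netrins were low as well, with a sum between 0.692 and 0.955 FPKM. *Ntn1*, the founding netrin, was at 0.643 and 0.464 FPKM in the mutant pools, against 0.410 and 0.363 FPKM in the controls, with both mutant libraries higher (log2 fold change 0.41, SE 0.26, limma adjusted p = 0.810). Of the 5 netrin receptors, *Unc5b* was the only one with a mean of at least 0.1 FPKM, and *Dcc*, the receptor of attraction, was between 0.0247 and 0.0625 FPKM. The 23 members under the minimum had at most 46 reads in any library. They were, besides *Nrp2* and *Dcc*, 7 EphA genes (*Epha1*, *Epha3*, *Epha4*, *Epha6*, *Epha7*, *Epha8* and *Epha10*), *Ephb1*, *Plxnb3*, *Plxnc1*, *Robo2*, *Slit1*, *Ntn4*, *Ntn5*, *Unc5a*, *Unc5c*, *Unc5d*, *Sema3c*, *Sema3e*, *Sema4f* and *Sema6c*.

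**Figure D2:**
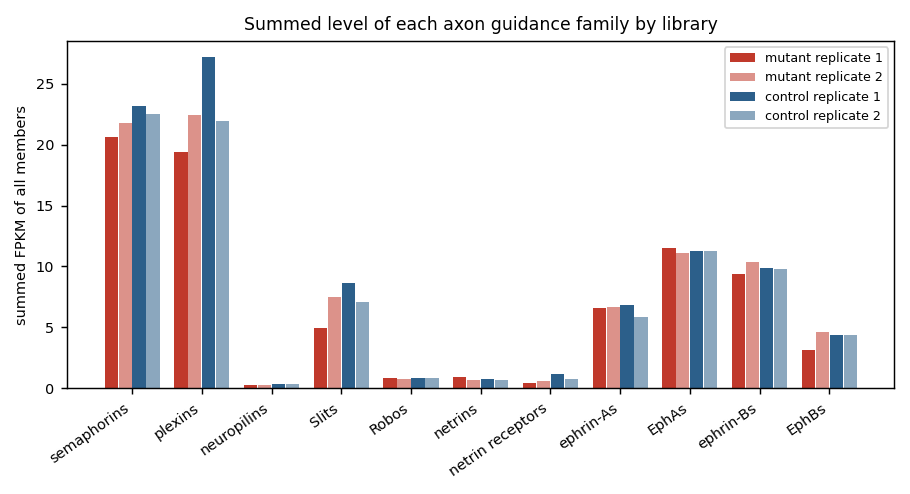
Summed FPKM of all members of each family (bars from 0), 1 bar per library (red, mutant replicates 1 and 2; blue, control replicates 1 and 2, with replicate 2 paler). Plexins and semaphorins have the tallest bars, the EphA bars are level across the 4 libraries, and the plexin bar of control replicate 1, at 27.2 FPKM, stands above the others.

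The comparison of mutant with control lenses was made on log2(FPKM + 0.1) with limma over all 15997 genes with a mean of at least 0.1 FPKM, and fold changes on this scale understate those of low genes. At an adjusted p under 0.05, limma called 0 of the 46 tested members and 6 of all genes (0.0375%), and the members' adjusted p-values lay between 0.580 and 0.999. On the recovered reads, limma's voom likewise called 0 members at that threshold, with 14 of all genes (0.0875%). At an unadjusted p under 0.05, limma had 4 members (8.70%), against 6.31% of all genes. Of these, 1 was higher in the mutant, *Efna4*, where 3.39% of all genes were, and 3 were lower, *Unc5b*, *Plxnd1* and *Ephb4*, where 2.92% of all genes were. Voom had 9 members at that unadjusted threshold (19.6%, against 7.43% of all genes), namely these 4 and, all lower in the mutant, *Plxnb2*, *Sema5a*, *Slit3*, *Plxna1* and *Robo1*. By direction, voom had 1 member higher (3.43% of all genes) and 8 lower (4.0% of all genes). Both groups were separate, with no overlap, in 16 members (34.8%), against 36.6% of all genes, a share near the background. Both mutant libraries were higher in 7 members (18.2% of all genes) and lower in 9 (18.3% of all genes). The precision set by 2 pools per group was modest: the median SE of a log2 fold change was 0.17 for the members with a mean of at least 1 FPKM and 0.36 for the lower ones.

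The sign of the fold change was also counted by role, a split that was not among the planned results. Of the 18 tested receptors, 14 had a log2 fold change under 0 and 4 above, with a median of -0.10, and of the 28 tested ligands 13 lay under 0 and 15 above, with a median of 0.0039. The median over all 46 members was -0.05, beside 0.0041 over all genes tested. Over all 15997 genes tested, 7880 lay under 0 and 8117 above. The receptor split was also 14 of 18 with quantile normalization and with libraries scaled to their total reads. FPKM as deposited differs from the main scale by a common factor, so its split could not differ. The ligand split became 17 under 0 and 11 above when libraries were scaled to their total reads, which moved the median of all genes to -0.02. Whether receptors and ligands differ was not tested. Without mutant replicate 1 or without control replicate 1, 12 of 18 receptors lay under 0, and with no minimum on FPKM 19 of 33 did. Ligands lay above 0 in 18 of 28 without control replicate 1 and in 10 of 28 without control replicate 2.

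**Figure D3:**
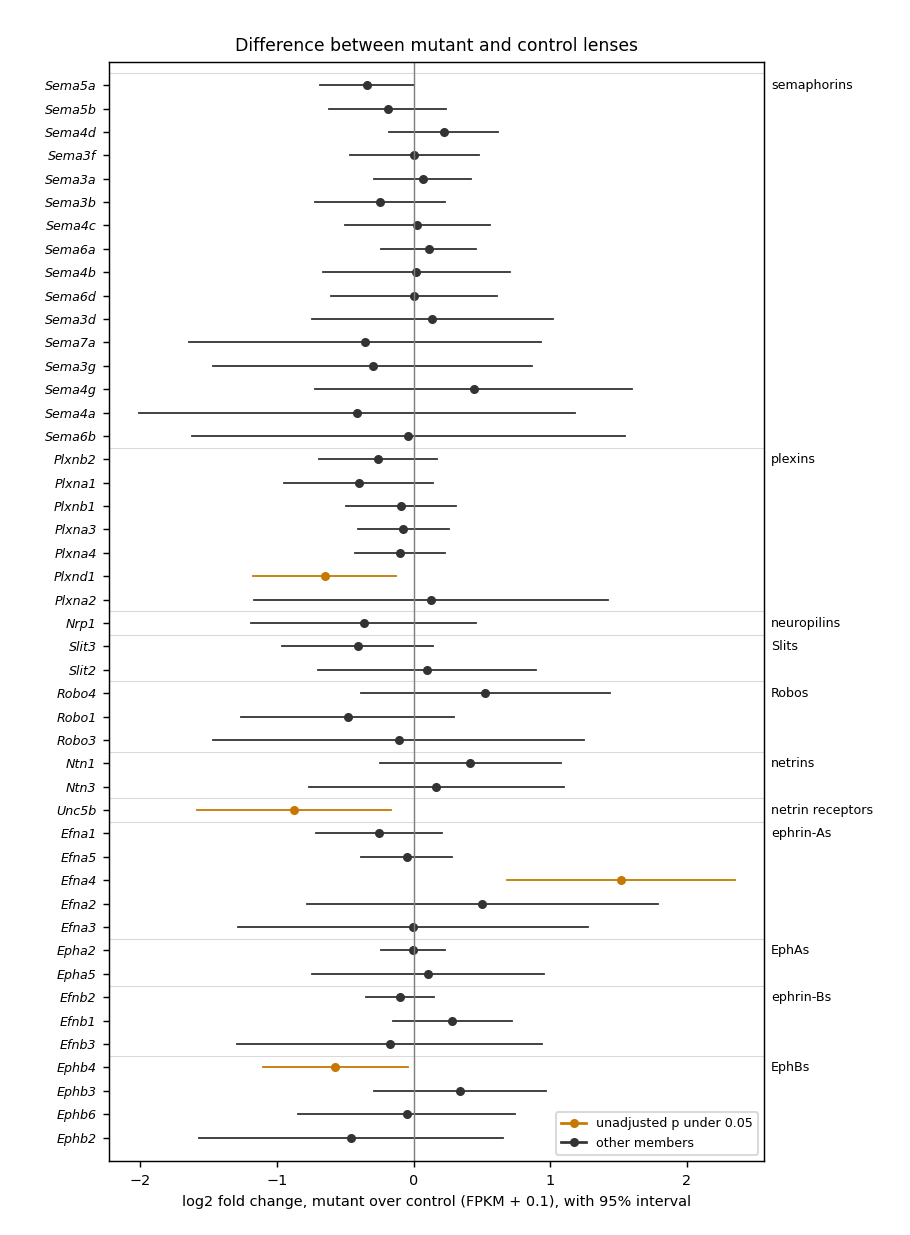
Log2 fold change of mutant over control on the FPKM + 0.1 scale (points) with 95% intervals (lines) for the 46 tested members, grouped by family; orange marks the 4 members with an unadjusted p under 0.05. *Efna4*, at 1.52, lies to the right of 0 and *Unc5b*, *Plxnd1* and *Ephb4* to the left, and the intervals of the other 42 members reach or cross 0.

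These 4 members are described in turn, and the 250 bases before the annotated start of each gene are printed, from RefSeq on GRCm38.p6, because they are the members whose groups lay furthest apart for their error. Each runs 5′ to 3′ on the strand of its gene, and capitals mark the GC box, GGGCGG or its complement CCGCCC, a short motif of many promoters without a TATA box:
Efna4, chr3:89338029-89338278, minus strand: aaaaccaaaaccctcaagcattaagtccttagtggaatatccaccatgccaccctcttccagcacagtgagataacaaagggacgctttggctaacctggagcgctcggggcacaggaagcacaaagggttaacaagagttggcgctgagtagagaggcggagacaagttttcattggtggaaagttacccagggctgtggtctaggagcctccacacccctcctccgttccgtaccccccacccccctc
Ephb4, chr5:137349859-137350108, plus strand: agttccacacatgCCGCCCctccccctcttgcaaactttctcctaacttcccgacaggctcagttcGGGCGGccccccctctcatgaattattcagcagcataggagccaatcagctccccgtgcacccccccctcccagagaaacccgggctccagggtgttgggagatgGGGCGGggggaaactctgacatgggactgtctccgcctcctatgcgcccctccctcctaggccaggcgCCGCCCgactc
Plxnd1, chr6:115995006-115995255, minus strand: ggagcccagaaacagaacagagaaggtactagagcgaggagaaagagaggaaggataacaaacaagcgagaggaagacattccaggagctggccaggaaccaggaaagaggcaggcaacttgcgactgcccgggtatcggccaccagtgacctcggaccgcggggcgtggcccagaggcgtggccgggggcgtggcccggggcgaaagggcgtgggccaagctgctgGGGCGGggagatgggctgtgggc
Unc5b, chr10:60831582-60831831, minus strand: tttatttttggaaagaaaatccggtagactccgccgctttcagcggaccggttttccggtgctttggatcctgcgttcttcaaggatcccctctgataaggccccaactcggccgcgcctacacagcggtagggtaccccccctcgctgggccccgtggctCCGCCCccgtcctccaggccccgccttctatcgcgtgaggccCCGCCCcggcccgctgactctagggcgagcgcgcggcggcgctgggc
The window of *Ephb4* held 4 GC boxes, that of *Unc5b* 2, that of *Plxnd1* 1 and that of *Efna4* none. The G and C content was 54.4% for *Efna4* and 64.0%, 64.8% and 66.8% for *Ephb4*, *Plxnd1* and *Unc5b*. Of the 69 members, 59 were found among these RefSeq windows, with 75 windows between them, and 53 of the 75 (70.7%) held a GC box on either strand, as did 42.6% of the windows of protein-coding genes. The TATA box, searched as TATAAA on both strands, was in 2 of the 75 windows (2.67%), against 11.6% of those of protein-coding genes, and the ETS motif CCGGAAG, also on both strands, was in 2 of the 75 (2.67%), against 8.98%. The median G and C content of the members' windows was 64.4%, against 55.6%. None of the 3 motifs contains another, neighbouring GC boxes can share bases, several windows of 1 gene share bases, and a match in letters is a description of the window and not a site.

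*Efna4* (ENSMUSG00000028040, 3:89240697-89245335 on the mm39 build), which encodes ephrin-A4, a ligand tethered to the membrane, had the largest log2 fold change of the tested members. It was at 1.30 and 0.735 FPKM in mutant replicates 1 and 2 and at 0.322 and 0.237 FPKM in control replicates 1 and 2. These levels rest on 37 and 23 reads in mutant lenses, with 10 and 7 reads in control lenses. Both mutant libraries lay above both controls, and the mutant libraries differed from each other more than the controls did (1.02 ± 0.398 against 0.280 ± 0.0595 FPKM, SD, n = 2). The log2 fold change was 1.52 (SE 0.33, 95% interval 0.68 to 2.35, limma adjusted p = 0.580), and 1.14 to 1.89 with each library left out in turn. Its size differed by pair: 2.05 between mutant replicate 1 and control replicate 2, both low in *Xist*, and 0.98 within the pair high in *Xist*. Voom gave 1.74 (adjusted p = 0.419). *Efna4* sits between *Efna3*, 10425 bases away, and *Adam15*, 514 bases away, whose reads numbered 42 and 41 in mutant and 45 and 32 in control lenses. *Efna3* was at 0.277 and 0.105 FPKM in the mutant pools, against 0.232 and 0.134 FPKM in the controls, so that the neighbour on that side had overlapping groups.

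*Unc5b* (ENSMUSG00000020099, 10:60598372-60667360), a netrin receptor of repulsion that is also used by endothelial cells, was at 0.350 and 0.498 FPKM in mutant lenses, with 1.03 and 0.702 FPKM in control lenses. The reads were 39 and 61 in mutant and 125 and 81 in control lenses, and both mutant libraries lay below both controls (0.424 ± 0.105 against 0.865 ± 0.230 FPKM, SD, n = 2). The log2 fold change was -0.87 (SE 0.28, 95% interval -1.59 to -0.16, limma adjusted p = 0.749), and -1.12 to -0.63 with each library left out. Within the pair of libraries low in *Xist*, mutant replicate 1 and control replicate 2, the difference was -0.83, and within the other pair, high in *Xist*, -0.91. *Unc5b* had the lowest adjusted p of the members under voom, 0.288.

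*Plxnd1* (ENSMUSG00000030123, 6:115931772-115971966), a plexin that receives semaphorin 3E and is prominent in vessels, was at 0.722 and 0.679 FPKM (94 and 97 reads) in the mutant pools, against 1.34 and 0.996 FPKM (190 and 134 reads) in the controls. The 2 mutant pools were alike and the control pools were not (0.700 ± 0.0308 against 1.17 ± 0.242 FPKM, SD, n = 2). The log2 fold change was -0.65 (SE 0.20, 95% interval -1.17 to -0.13, limma adjusted p = 0.748), and it was -0.85 to -0.45 with each library left out, -0.41 within the pair low in *Xist* and -0.88 within the pair high in *Xist*. *Sema3e*, the gene of its ligand, was between 0.0110 and 0.0234 FPKM, under the minimum for testing.

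*Ephb4* (ENSMUSG00000029710, 5:137348371-137376931), the receptor of ephrin-B2 and a marker of veins, was at 1.32 and 1.92 FPKM (109 and 174 reads) in mutant lenses, with 2.54 and 2.29 FPKM (229 and 196 reads) in control lenses. Both mutant libraries lay below both controls (1.62 ± 0.423 against 2.41 ± 0.174 FPKM, SD, n = 2), with a log2 fold change of -0.57 (SE 0.21, 95% interval -1.10 to -0.04, limma adjusted p = 0.783). The range with each library left out was -0.82 to -0.32, the latter without mutant replicate 1, and the difference was -0.75 within the pair low in *Xist* and -0.39 within the pair high in *Xist*. Another gene, *Zan*, overlaps *Ephb4* on the opposite strand, with 2 to 5 reads per library.

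All 3 lower receptors are also used by endothelial cells, and endothelial markers were read beside them. Of the 8 endothelial markers, 2 were lower in both mutant libraries than in both controls, and 0 were higher in both. Over all genes tested, 18.3% were lower and 18.2% higher in that way. The 2 were *Tie1*, at 0.433 and 0.260 FPKM against 0.586 and 0.640 FPKM, and *Flt1*, at 0.170 and 0.140 FPKM against 0.312 and 0.189 FPKM. *Pecam1* was at 0.351 and 0.213 FPKM in the mutant pools, against 0.438 and 0.209 FPKM in the controls. The summed level of the list overlapped between groups, as given above. Its largest part was *Cldn5*, at 5.94 and 3.57 FPKM in the mutant pools, against 5.19 and 3.87 FPKM in the controls. *Robo4*, the Robo receptor of endothelial cells, was on the other side, higher in both mutant libraries. The part of endothelial content in these differences was not tested, and neither was that of the lens epithelium. Its 7 markers, none at 0, summed to 138 and 165 FPKM in the mutant pools, against 156 and 158 FPKM in the controls. Of them 1, *Pdgfra*, was lower in both mutant libraries (4.02 and 5.25 FPKM against 5.86 and 5.32 FPKM), and the other 6 overlapped. Markers of mural cells and fibroblasts summed to 4.67 and 4.13 FPKM in the mutant pools, against 5.60 and 5.19 FPKM in the controls. Of these 8 markers, 1 was lower in both mutant libraries, *Rgs5*, and 1 higher, *Col1a1*. Pigment cell markers summed to 0.634 and 0.709 FPKM in the mutant pools, against 0.845 and 1.34 FPKM in the controls. Of these 5 markers, 1 was lower and 0 were higher. The part of these lists was not tested either. For *Efna4*, the list that moved the same way was that of macrophage markers, with *C1qa* at 1.02 and 0.638 FPKM in the mutant and 0.445 and 0.261 FPKM among controls. *Adgre1* was near the floor, at 0.0173 and 0.0158 FPKM in the mutant pools and listed at 0 in both controls. *Mrc1* was the marker whose groups overlapped. The part of macrophage content in the difference was not tested.

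**Figure D4:**
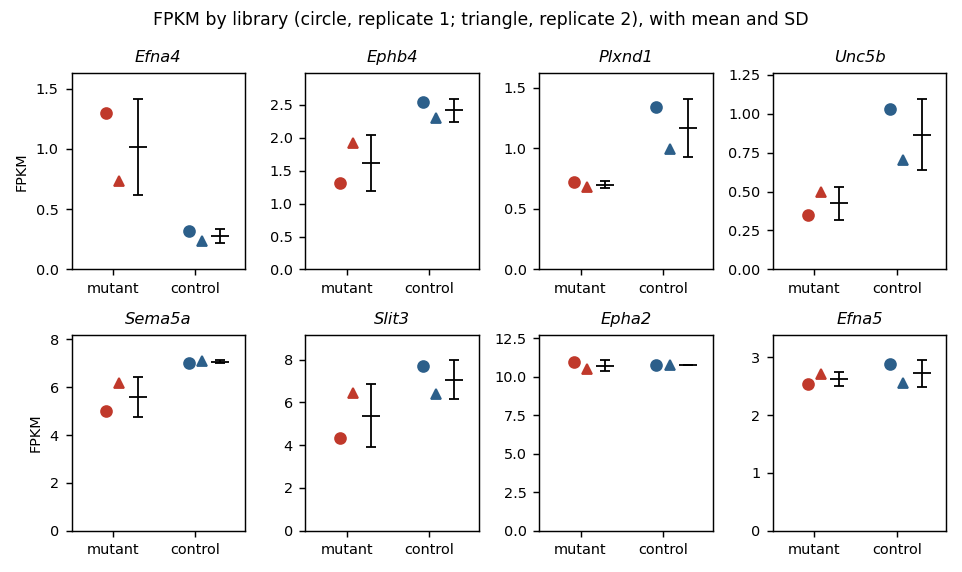
FPKM by library (linear axes from 0; circle, replicate 1; triangle, replicate 2; red, mutant; blue, control) of *Efna4*, *Ephb4*, *Plxnd1*, *Unc5b*, *Sema5a*, *Slit3*, *Epha2* and *Efna5*, with the mean and SD of each group (n = 2) in black. The symbols of the groups are separate in the first 5 genes, meet in *Slit3* at 6.42 and 6.41 FPKM, and overlap in *Epha2* and *Efna5*.

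The level of many members followed single libraries. Of the 21 members with a mean of at least 1 FPKM, 11 had their lowest level in mutant replicate 1, as did 30.4% of all genes of that level, and 12 had their highest level in control replicate 1, as did 23.8% of all such genes. The FPKM summed over all members was 78.0 and 86.8 in mutant replicates 1 and 2 and 94.4 and 85.5 in control replicates 1 and 2, so that the replicates numbered 2 were closer to each other than to the other library of their group. Without control replicate 1, 0 members had an unadjusted p under 0.05 with limma, where 4.96% of all genes did, and without mutant replicate 1 there were 2, *Efna4* and *Efnb1*, both higher, where 6.31% of all genes did.

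**Figure D5:**
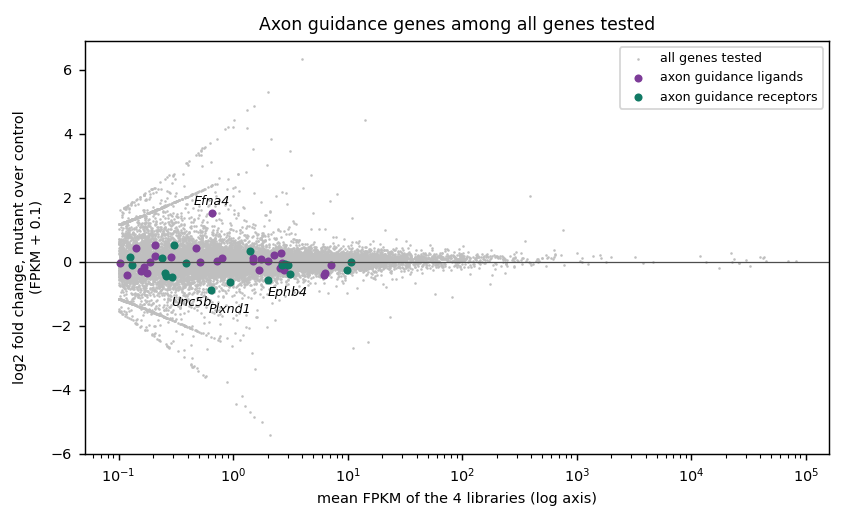
Log2 fold change of mutant over control (FPKM + 0.1) against mean FPKM (log axis) for all 15997 genes tested (grey), with ligands in purple and receptors in green. The members lie within the grey cloud of genes of the same level, and *Efna4*, *Unc5b*, *Plxnd1* and *Ephb4* are labelled.

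A further 105 genes that act with these cues, from co-receptors and adhesion molecules to the small GTPases, kinases and actin regulators downstream, were taken as a list. Of the 86 that were tested, limma called 0 at an adjusted p under 0.05, with a lowest adjusted p of 0.740. The log2 fold change was above 0 for 30 and under 0 for 56, with a median of -0.06. Among all 15997 genes tested it was above 0 for 8117 and under 0 for 7880, with a median of 0.0041. In the list, 5 (5.81%) had an unadjusted p under 0.05 with limma, against 6.31% of all genes. *Nrcam*, an L1-family adhesion molecule that joins semaphorin receptor complexes, was at 17.2 and 17.7 FPKM in the mutant pools, against 20.2 and 22.6 FPKM in the controls (log2 fold change -0.29, SE 0.10, limma adjusted p = 0.769). *Vasp*, which promotes the growth of actin filaments, was at 4.31 and 5.33 FPKM in mutant lenses, with 6.54 and 6.51 FPKM in control lenses (log2 fold change -0.44, SE 0.14, limma adjusted p = 0.740). *Sos2*, an exchange factor for Ras, was at 2.23 and 2.30 FPKM in the mutant pools, against 2.77 and 3.09 FPKM in the controls (log2 fold change -0.35, SE 0.13, limma adjusted p = 0.781). These 3 were lower in both mutant libraries, and the other two of the 5 were higher. *Cfl2*, a cofilin that severs actin filaments, was at 12.5 FPKM in both mutant libraries and at 10.4 and 10.5 FPKM in the control libraries (log2 fold change 0.26, SE 0.09, limma adjusted p = 0.769). *Myl12b*, a myosin regulatory light chain, was at 0.931 and 1.29 FPKM in mutant lenses, with 0.687 and 0.607 FPKM in control lenses (log2 fold change 0.68, SE 0.22, limma adjusted p = 0.752).

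Counts per gene also depend on what lies beside a gene. Another annotated gene of any type overlaps 42 of the 69 members, and for 6 of them it is a protein-coding gene, at *Epha1*, *Ephb1*, *Ephb4*, *Ntn3*, *Ntn5* and *Unc5a*. The overlap was taken from gene start to gene end, introns included, so it does not by itself show shared reads. At *Ephb1* the protein-coding partner had 0 reads in every library. Whether reads were counted by strand is not given in the sources used here. How far reads of partner and member mix at the other genes therefore cannot be told.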

How the data were processed

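RNA was measured in 4 libraries, 2 of mutant and 2 of control lens pools. Before deposit, the authors had reads mapped by HISAT2 and assigned to genes by featureCounts, from which FPKM was computed, and they tested counts with DESeq2. The deposited table holds these FPKM values with gene length, position and biotype, and 0 of its per-sample columns were left unused. The build, mm39, is from the submitters' processing notes. The deposited gene length is in bases and was used to recover whole reads: FPKM times length gave whole multiples of 1 step (tolerance 0.01) for 100% of values. A scale factor per library, the median over genes of FPKM divided by the geometric mean of the 4 libraries, was 1.01 throughout. Rescaling by it therefore left the libraries in the same relation to each other. The library size behind the deposited FPKM was 0.944 to 1.05 times the recovered reads of that library.

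Genes with a mean of at least 0.1 FPKM entered a linear fit of log2(FPKM + 0.1) in limma (lmFit, then eBayes with trend=TRUE). Two-sided p-values were adjusted by Benjamini-Hochberg over all genes tested. The unit being FPKM, a count test was not the main test. The unadjusted counts are read beside the share of all genes. The scripts were tested on simulated data. With nothing but pools behind the replicates, p-values set a difference against the spread between pools. The eBayes step draws that spread toward the spread of genes of similar level. Genes with few reads are the least precise.

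The members and lists were chosen with earlier results of these data known. Members were named by rule: the 15 with the highest mean, the highest of each family, those with an unadjusted p under 0.05, the 5 with the largest fold change among members with a mean of at least 1 FPKM, *Epha2* and *Efna5*. *Robo1*, *Sema3a*, *Sema3e*, *Epha5*, *Efna3*, *Dcc* and the members whose level was too low to test were named after their values were seen. Alternatives were voom, no trend, pseudocounts of 1 and 0.01, other filters and scalings, a replicate block, an *Xist* covariate and each library left out. Fits ran in R 4.3.3 with limma 3.58.1, and tables and plots in Python 3.11.15 with pandas 2.3.3, numpy 2.4.6 and matplotlib 3.10.9.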

Additional observations from a re-analysis of the deposited data

How the results depend on the processing

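Over 15 alternatives, 0 members and 0 genes of the pathway list were called at an adjusted p under 0.05. Of 398 recomputed log2 fold changes of the 27 named genes, 394 kept their direction and their side of the threshold, and no adjusted p was under 0.288. Part of these directions was fixed in advance. Without a trend, with the replicate block or with the *Xist* covariate, the fold change equals the main one in this balanced design. FPKM as deposited differs from the main scale by a factor common to all libraries. The count of members with an unadjusted p under 0.05 was 4 with limma, where 6.31% of all genes were. It was 9 with voom, where 7.43% of all genes were, and 2 with a mean of at least 1 FPKM, where 7.36% were. A fit with a library left out assumes that the lone library varies like the other group. Separate groups were found in 16 members, where 36.6% of all genes had them, in 8 of those with a mean of at least 1 FPKM and in 26 with no filter. With a library left out the count was 29 to 34. There 1 library stands against 2, which makes separation more frequent in any gene. The share of all genes is given for the main setting only, so the other counts are not read as a result. For the pathway list the unadjusted count of 5 became 9 with voom, 3 without a trend, 2 on total reads and 2 with the replicate block. In the same order, from the main fit on, 6.31%, 7.43%, 5.92%, 4.76% and 5.48% of all genes were under that p. With a library left out, log2 fold changes crossed 0 in 18 of the 46 tested members and, among the named genes, for *Epha2* (-0.036 to 0.031, above 0 without mutant replicate 2) and, above 0 without control replicate 1, for *Plxnb1* (-0.25 to 0.071), *Plxna3* (-0.18 to 0.027) and *Efna5* (-0.13 to 0.034). The members' median log2 fold change lay between -0.12 and 0.01. The cause of these shifts was not tested beyond the fewer genes or libraries used.

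Libraries share replicate numbers across groups, but the labels give no pairing, and the correlation of same-numbered deviations was -0.0051 over 15997 genes and -0.11 over the 8378 with a mean of at least 1 FPKM. With the replicate block, 4 members had an unadjusted p under 0.05 (5.48% of all genes did). The *Xist* covariate, which here equals the crossed pairing, gave 6 (6.87% of all genes). Depth limits the low members: at 7 to 37 reads per library *Efna4* rests on few counts.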
